A study of Homo sapiens with 6 samples.

Results

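Interferon-stimulated genes are the transcripts that cells switch on when an interferon binds its receptor. A list of 51 such genes was followed here across 3 related human breast cancer lines. It was grouped by known function, as antiviral effectors, nucleic acid sensors, transcription regulators, ubiquitin-like and ADP-ribosyl modifiers, and others of less defined role. The genes were chosen with earlier results of these data known. The shares of members called are therefore descriptive and do not test the list. On the arrays 49 of the 51 had a transcript cluster (the probe group that stands for 1 gene) with their symbol alone, among 18417 genes so represented. GBP1, an interferon-induced GTPase, and STAT2, a subunit of the main interferon transcription factor, had no such cluster and are not analysed here. No filter on low values was applied, so all 49 entered every count.

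The series holds 6 arrays of total RNA, 2 biological replicates for each of 3 lines. MDA-MB-231 is an established triple-negative breast cancer line of mesenchymal character. 231BoM-1833 and 231BrM-2a derive from it by selection for cells that metastasise to bone (231BoM-1833) or to brain (231BrM-2a). All 3 lines were grown in RPMI-1640 with serum, received no interferon or other agent that the labels name, and were sorted magnetically with antibodies to CD24, CD44 and ESA, the product of EPCAM, for CD24-/CD44+/ESA+ cells, the stem-like fraction of such lines. The MDA-MB-231 arrays stand for sorted cells too, so no group shows unsorted cells. Nothing in the labels ties the replicates to separate cultures or sorts, so p-values reflect only how far these samples spread, and that spread may be technical. Each line is a single selected population, so selection for an organ and the history of that population cannot be told apart.

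Type I and type III interferons signal through receptors whose kinases, JAK1 and TYK2, activate transcription factors, STAT2 among them. STAT2 works with IRF9 in a complex that binds the interferon-stimulated response element in target promoters. Interferon gamma acts through a different element, the gamma-activated site. Some tumour cells keep part of this programme on without added interferon.

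Promoter sequence was examined first, because the response element is the feature by which these genes are known to be switched on. RefSeq windows (assembly GRCh38.p14, 250 bases before to 50 bases after a start) matched 41 of the 51 members by symbol, with 58 windows in all. IFIT2, MX2, DHX58, OAS2, OASL, IRF7, USP18, TRIM22, LAMP3 and PLAAT4 had none. The response element core was searched as GAAANNGAAA on both strands, and 27 of the 41 members (65.9%) held it, against 1195 of 27305 genes with a window (4.38%). Counted by window, 1255 of 35116 (3.57%) held the core. The gamma-activated site was searched as TTCNNNGAA, which reads the same on both strands. It lay in 13 of the 41 members (31.7%), against 2560 of all genes (9.38%) and 2689 of all windows (7.66%), and 8 members held both motifs. A match here describes letters in a window and does not show a bound site.

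The stretches below come from RefSeq, 5′ to 3′ on the strand of the gene, with capitals marking the core. A core on the other strand appears as its reverse complement. IFIT1, IFIH1, PARP9 and EPSTI1 are shown because each had the largest rise in 231BrM-2a within its role among members holding an upstream core. IFITM1 is shown because it was high in 231BoM-1833 alone. IFIT5 was added after its values were seen, because it holds the same core and was called in no comparison.
IFIT1: ttagTTTCACTTTCcccTTTCGGTTTCcct
IFIH1: aattcgcTTTCCTTTTCTGTTTCccgcggt
PARP9: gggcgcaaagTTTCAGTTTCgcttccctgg
EPSTI1: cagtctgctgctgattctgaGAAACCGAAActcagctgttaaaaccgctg
IFITM1: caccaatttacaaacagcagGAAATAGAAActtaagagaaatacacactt
IFIT5: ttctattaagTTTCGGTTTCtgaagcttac
The IFIT1 stretch lies at chr10:89392503-89392532 on the plus strand, 120 to 91 bases before the start, and holds 2 cores. The IFIH1 stretch lies at chr2:162318821-162318850 on the minus strand and shows 2 overlapping cores of the 3 upstream of its start. The PARP9 stretch, at chr3:122564322-122564351 on the minus strand, holds a single core that also lies in the window of DTX3L, the gene transcribed away from it. The EPSTI1 stretch is at chr13:42992262-42992311 on the minus strand and the IFITM1 stretch at chr11:313980-314029 on the plus strand, and neither overlaps a gene span in the RefSeq gene table. The IFIT5 stretch lies at chr10:89414513-89414542 on the plus strand and shows 1 of 2 upstream cores. The IFIT1 and IFIT5 stretches fall within the span of LIPA, the IFIH1 stretch within that of GCA, and the PARP9 stretch within those of PARP9 and DTX3L.

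In 231BoM-1833 against MDA-MB-231, 21 of 49 members rose (42.9%) and 0 fell, against 8.43% higher and 7.38% lower among all 21214 clusters with a gene symbol. A call here means an adjusted p under 0.05 in limma, with Benjamini-Hochberg adjustment over all those clusters. The median log2 difference was 0.36 over the members and -0.05 over all clusters, and 35 of 49 members had a positive difference. The members ranged from -0.37 for EPSTI1 to 1.84 for BST2, and 5 rose at least 2-fold (BST2, TRIM22, IFI6, IFI27 and SAMD9). As these are bulk samples, fewer cells of a type and less RNA per cell cannot be told apart. Leaving out any array in turn kept 9 of the 21 calls throughout: IFITM1, BST2, SAMD9, SAMD9L, IFI6, IFIH1, IFI16, TRIM22 and IFI27. Without MDA-MB-231 replicate 1 the count was 11, and without MDA-MB-231 replicate 2 it was 9. With unnamed clusters added to the adjustment, 12 members passed.

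In 231BrM-2a against the same MDA-MB-231 arrays, 32 of 49 members rose (65.3%) and TRIM22 fell, against 10.5% higher and 8.59% lower among all clusters. The median log2 difference was 0.72 over the members and -0.05 over all clusters, and 46 of 49 were positive. IFIT1 had the largest difference, 3.03 on the log2 scale, and 18 members rose at least 2-fold. Leaving out each array in turn kept 25 of these 33 calls throughout. The other calls, those of SAMD9, ADAR, IRF9, ISG15, USP18, TRIM22, PARP14 and LGALS3BP, were each lost without at least 2 of the arrays of the lines compared, with adjusted p between 0.0502 and 0.202. Both derivatives were set against the same parental arrays, so their differences from MDA-MB-231 are not independent of each other.

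Set directly against each other, the derivatives differed in 27 members. 22 were higher in 231BrM-2a (44.9%) and 5 were lower (10.2%), against 12.5% higher and 11.0% lower among all clusters. The median log2 difference was 0.29 over the members and 0.01 over all clusters. EIF2AK2, IFI16, IFITM1, SAMD9 and TRIM22 were the 5 lower ones. Leaving out each array in turn kept 17 of the 27 calls throughout, 15 higher and, of those lower, IFITM1 and TRIM22. The calls of SAMD9, IFIH1, DDX60, OAS2, EIF2AK2, IFI16, IRF1, HELZ2, IFI27 and LAMP3 were each lost without at least 1 array (adjusted p 0.0503 to 0.287). The number lower was 3 without either MDA-MB-231 replicate and 2 without 231BrM-2a replicate 2.

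The mean log2 value over the 49 members was read on each array. It was 7.37 and 7.31 in MDA-MB-231, 7.74 and 7.71 in 231BoM-1833, and 8.26 and 8.12 in 231BrM-2a. The 3 pairs of arrays did not overlap. The median member level was 7.07, 7.41 and 8.10 in the 3 lines in that order, while the median over all represented genes was 7.30, 7.27 and 7.32.

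**Figure D1:**
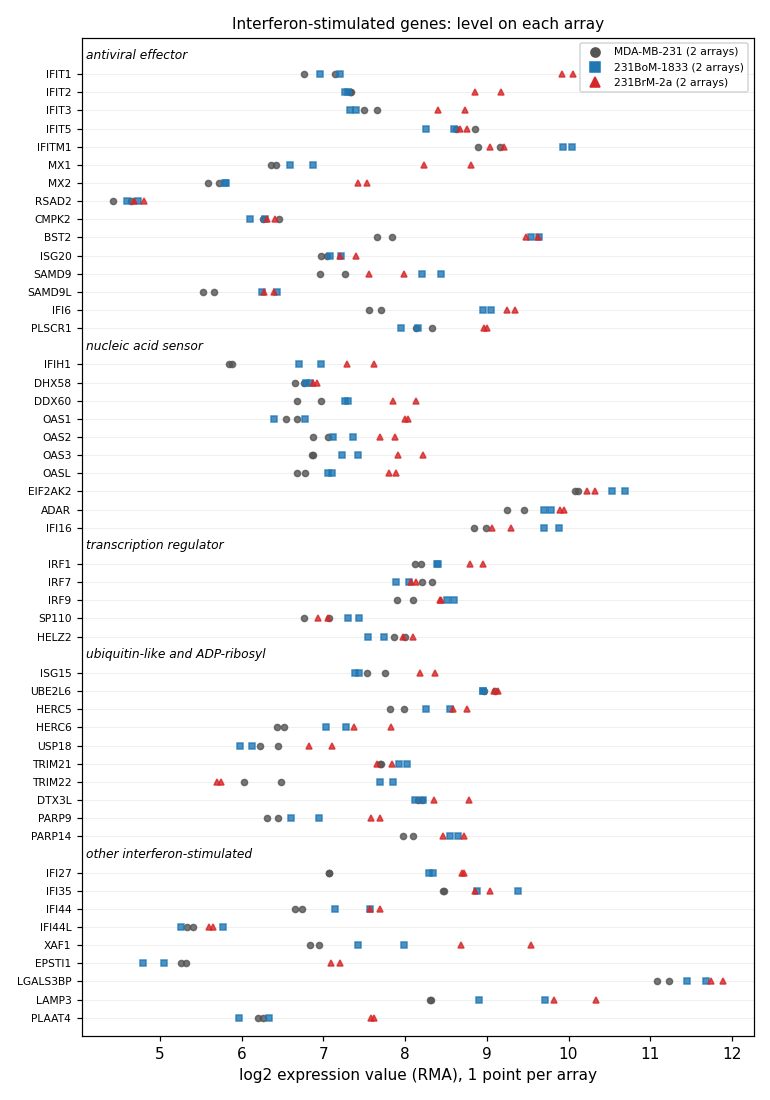
Log2 expression value (horizontal axis) of each of the 49 members (rows, grouped by role) on every array, 1 point per array and 2 arrays per line. The 231BrM-2a points of IFIT1, at 10.05 and 9.92, stand apart from all others of that gene, while the points of BST2 separate MDA-MB-231 from both derivatives.

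Among antiviral effectors, 15 of 16 were measured. 5 rose in 231BoM-1833 (33.3%) and 10 rose in 231BrM-2a (66.7%), against 8.43% and 10.5% among all clusters. Between the derivatives 6 were higher in 231BrM-2a (40.0%) and 2 lower (13.3%), against 12.5% and 11.0% among all clusters. The share lower was near that of all clusters. The tetratricopeptide proteins IFIT1, IFIT2 and IFIT3, which bind foreign RNA and block its translation, rose in 231BrM-2a and were not called in 231BoM-1833. IFIT1 measured 7.15 and 6.76 in MDA-MB-231, 7.21 and 6.96 in 231BoM-1833, and 10.05 and 9.92 in 231BrM-2a. Both 231BrM-2a arrays lay far above the other 4, whose ranges overlapped. The log2 difference from MDA-MB-231 was 3.03 (SE 0.15, limma adjusted p = 6.18e-06), an 8.17-fold level, and from 231BoM-1833 it was 2.90 (SE 0.15, limma adjusted p = 2.84e-06).

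IFIT2 measured 7.34 and 7.33 in MDA-MB-231, 7.26 and 7.30 in 231BoM-1833, and 9.17 and 8.85 in 231BrM-2a. IFIT3 measured 7.50 and 7.66, then 7.33 and 7.39, then 8.73 and 8.40 in the same order of lines. For both genes the 231BrM-2a arrays were the high pair, with log2 differences from MDA-MB-231 of 1.68 (SE 0.12, limma adjusted p = 5.24e-05) and 0.99 (SE 0.13, limma adjusted p = 0.00124). The neighbouring family member IFIT5, whose promoter core is printed above, measured 8.62 and 8.86, 8.60 and 8.26, and 8.76 and 8.68. The 231BoM-1833 pair was the lowest and the 231BrM-2a pair lay within the parental range. IFIT5 was called in no comparison (limma adjusted p = 0.165, 0.934 and 0.188).

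The dynamin-like GTPases MX1 and MX2, which trap viral ribonucleoproteins, were also raised in the brain line. MX1 measured 6.36 and 6.42 in MDA-MB-231, 6.87 and 6.59 in 231BoM-1833, and 8.81 and 8.23 in 231BrM-2a. MX2 measured 5.73 and 5.59, then 5.80 and 5.81, then 7.53 and 7.43. Both were highest in 231BrM-2a, by 2.13 (SE 0.18, limma adjusted p = 0.000101) and 1.82 (SE 0.11, limma adjusted p = 1.56e-05) on the log2 scale over MDA-MB-231. Neither was called in 231BoM-1833, where the differences were 0.34 and 0.15 (limma adjusted p = 0.234 and 0.373). PLSCR1, a phospholipid scramblase, also rose in 231BrM-2a (0.76, limma adjusted p = 0.00273).

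A second set of effectors was raised in both derivatives. BST2, the tether that holds budding virions at the cell surface, measured 7.84 and 7.66 in MDA-MB-231, 9.55 and 9.64 in 231BoM-1833, and 9.48 and 9.63 in 231BrM-2a. The derivative arrays overlapped each other and lay above the parental pair, by 1.84 (SE 0.12, limma adjusted p = 2.68e-05) and 1.80 (SE 0.12, limma adjusted p = 2.57e-05). Between the derivatives the difference was -0.04 (SE 0.12, limma adjusted p = 0.848). IFI6, a small membrane protein known to limit flavivirus replication, measured 7.70 and 7.56, then 9.06 and 8.95, then 9.34 and 9.24. It rose by 1.37 in 231BoM-1833 and by 1.66 in 231BrM-2a (limma adjusted p = 0.000133 and 2.81e-05), and the derivatives' own difference of 0.29 was not called (limma adjusted p = 0.0945).

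SAMD9, a cytoplasmic restriction factor, was highest in 231BoM-1833. It measured 6.96 and 7.27 in MDA-MB-231, 8.20 and 8.45 in 231BoM-1833, and 7.99 and 7.55 in 231BrM-2a. The 3 pairs did not overlap, with rises of 1.21 (limma adjusted p = 0.00239) and 0.66 (limma adjusted p = 0.0253) over the parental line. The second rise lost its call without replicate 1 or 2 of the parental line (adjusted p = 0.154 and 0.0502) or replicate 1 of the brain line (0.167). Its paralogue SAMD9L rose by 0.75 and 0.74 (limma adjusted p = 0.00401 and 0.00259).

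IFITM1, which blocks fusion of enveloped viruses with the cell, was the effector called in the bone line alone. It measured 9.16 and 8.89 in MDA-MB-231, 10.04 and 9.93 in 231BoM-1833, and 9.04 and 9.21 in 231BrM-2a. Only the 231BoM-1833 pair stood apart, and the other 2 pairs overlapped. The log2 difference was 0.96 against MDA-MB-231 (SE 0.13, limma adjusted p = 0.00191), and 231BrM-2a lay at -0.86 against 231BoM-1833 (SE 0.13, limma adjusted p = 0.00133). RSAD2, CMPK2 and ISG20 were not called in any comparison, and RSAD2, known as viperin, had the lowest line means of all members, 4.53 to 4.74.

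Among nucleic acid sensors, 6 of 10 rose in 231BoM-1833 and 7 of 10 rose in 231BrM-2a. Between the derivatives 6 were higher and 2 lower in 231BrM-2a. IFIH1, or MDA5, the cytoplasmic receptor for long double-stranded RNA, measured 5.88 and 5.84 in MDA-MB-231, 6.97 and 6.70 in 231BoM-1833, and 7.62 and 7.29 in 231BrM-2a. The pairs formed 3 separate steps, with rises of 0.97 (SE 0.14, limma adjusted p = 0.00274) and 1.59 (SE 0.14, limma adjusted p = 0.000119) over the parental line. The step between the derivatives, 0.62 (limma adjusted p = 0.0116), lost its call without 231BoM-1833 replicate 2 (adjusted p = 0.0625) and without 231BrM-2a replicate 1 (adjusted p = 0.0962).

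The oligoadenylate synthetases make the messenger that activates RNase L. OAS1 measured 6.55 and 6.68 in MDA-MB-231, 6.78 and 6.40 in 231BoM-1833, and 8.03 and 8.0 in 231BrM-2a. The 231BrM-2a pair alone was high, by 1.40 over MDA-MB-231 (SE 0.14, limma adjusted p = 0.000205). OAS2, OAS3 and the OAS-like protein OASL rose in 231BrM-2a by 0.82, 1.20 and 1.12 (limma adjusted p = 0.00268, 0.000378 and 0.000155). In 231BoM-1833, OAS3 and OASL rose by 0.46 and 0.36 (limma adjusted p = 0.0443 and 0.0481), while OAS2 differed by 0.28 (limma adjusted p = 0.173). The smaller rises of OAS3 and OASL lost their calls without either MDA-MB-231 array or 231BoM-1833 replicate 1 (adjusted p 0.106 to 0.232), and that of OASL without any array. DDX60, a helicase that assists RNA sensing, rose in 231BrM-2a by 1.17 (limma adjusted p = 0.000614).

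IFI16, a sensor of DNA, and EIF2AK2, the RNA-activated kinase PKR that halts translation, were highest in the bone line. IFI16 measured 8.84 and 8.99 in MDA-MB-231, 9.71 and 9.88 in 231BoM-1833, and 9.30 and 9.07 in 231BrM-2a. It rose by 0.88 in 231BoM-1833 (SE 0.13, limma adjusted p = 0.00258) and was not called in 231BrM-2a (0.27, limma adjusted p = 0.175), and 231BrM-2a lay at -0.61 against 231BoM-1833 (limma adjusted p = 0.00711). EIF2AK2 measured 10.11 and 10.08, then 10.70 and 10.54, then 10.33 and 10.23. Its rise of 0.52 in 231BoM-1833 (limma adjusted p = 0.0137) was lost without either MDA-MB-231 array (adjusted p = 0.0657 and 0.0935). The difference between the derivatives was lost without 231BrM-2a replicate 2 for both genes (adjusted p = 0.0678 for IFI16 and 0.241 for EIF2AK2), and for EIF2AK2 also without each other array except 231BoM-1833 replicate 2 (adjusted p 0.079 to 0.173). ADAR, the enzyme that edits double-stranded RNA, rose by 0.39 and 0.57 in the bone and brain lines (limma adjusted p = 0.0457 and 0.00788). The first of these ended without any array (adjusted p 0.0692 to 0.261), the second without MDA-MB-231 replicate 2 (0.0764) or 231BrM-2a replicate 1 (0.0587).

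Of 5 measured transcription regulators, 2 rose in each derivative (40.0%), against 8.43% of all clusters in the bone line and 10.5% in the brain line. IRF9, the DNA-binding subunit of the complex that recognises the response element, measured 8.10 and 7.91 in MDA-MB-231, 8.60 and 8.52 in 231BoM-1833, and 8.43 and 8.44 in 231BrM-2a. Both derivative pairs lay above the parental pair, by 0.56 (SE 0.11, limma adjusted p = 0.0112) and 0.43 (SE 0.11, limma adjusted p = 0.0248). Without replicate 2 of the parental line the first rise lost its call (adjusted p = 0.0965). The second lost it without that array (0.176) or either array of the brain line (0.108 and 0.122).

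IRF1, an activator that also responds to interferon gamma, measured 8.12 and 8.20 in MDA-MB-231, 8.39 and 8.40 in 231BoM-1833, and 8.96 and 8.79 in 231BrM-2a. It rose by 0.72 in 231BrM-2a (SE 0.11, limma adjusted p = 0.00208), and the 3 pairs did not overlap. IRF7, the factor that amplifies interferon alpha production, measured 8.21 and 8.33, 7.89 and 8.05, and 8.13 and 8.07. It was not called in either derivative (-0.30 and -0.17, limma adjusted p = 0.0984 and 0.324). SP110, a nuclear body protein, rose by 0.45 in 231BoM-1833 (limma adjusted p = 0.0448), a call that was lost without MDA-MB-231 replicate 2 (0.268), either 231BoM-1833 array (0.137 and 0.0654) or either 231BrM-2a array (0.069). HELZ2, a helicase coactivator, was higher in 231BrM-2a than in 231BoM-1833 by 0.39 (limma adjusted p = 0.0411) and was called in neither against MDA-MB-231. That difference lost its call without any array other than 231BoM-1833 replicate 2 (adjusted p 0.0594 to 0.217).

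Among the 10 ubiquitin-like and ADP-ribosyl genes, 4 rose in 231BoM-1833 (40.0%), against 8.43% among all clusters. In 231BrM-2a 6 rose (60.0%) and 1 fell (10.0%), against 10.5% higher and 8.59% lower among all clusters. The share that fell was near that of all clusters. ISG15, the ubiquitin-like protein that is attached to other proteins, measured 7.54 and 7.75 in MDA-MB-231, 7.44 and 7.39 in 231BoM-1833, and 8.37 and 8.18 in 231BrM-2a. USP18, the protease that removes it and also restrains the interferon receptor, measured 6.44 and 6.22, then 6.13 and 5.99, then 6.82 and 7.10. In both genes the 231BrM-2a pair was the highest and the 231BoM-1833 pair the lowest. The rises over MDA-MB-231 were each 0.63 (limma adjusted p = 0.00654 for ISG15 and 0.0109 for USP18), and those over 231BoM-1833 were 0.86 and 0.90 (limma adjusted p = 0.000956 and 0.00131). The rise of ISG15 over MDA-MB-231 was lost without replicate 1 of the parental line (adjusted p = 0.0565) or of the brain line (0.06), and that of USP18 without replicate 2 of either (0.0986 and 0.0966).

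The ligases and the conjugating enzyme of the ISG15 pathway were read next. HERC5, the main ISG15 ligase, rose by 0.49 in 231BoM-1833 and 0.77 in 231BrM-2a (limma adjusted p = 0.0362 and 0.00413), and its relative HERC6 by 0.68 and 1.13 (limma adjusted p = 0.0209 and 0.00146). Their rises in 231BoM-1833 were lost without either MDA-MB-231 array or 231BoM-1833 replicate 1 (adjusted p 0.077 to 0.208), and that of HERC5 also without either 231BrM-2a array (0.0546). UBE2L6, the conjugating enzyme, was called in no comparison (-0.09, 0.07 and 0.16, limma adjusted p = 0.604, 0.666 and 0.325). Whether these genes differed in their change was not tested.

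TRIM22, a ubiquitin ligase that restricts several viruses, was the member called in opposite directions. It measured 6.48 and 6.03 in MDA-MB-231, 7.69 and 7.85 in 231BoM-1833, and 5.75 and 5.70 in 231BrM-2a. The 3 pairs did not overlap, and the bone line was high and the brain line low. TRIM22 rose by 1.52 in 231BoM-1833 (SE 0.15, limma adjusted p = 0.000408) and lay at -2.04 in 231BrM-2a against 231BoM-1833 (SE 0.15, limma adjusted p = 2.19e-05). The fall below MDA-MB-231, by 0.53 on the log2 scale (limma adjusted p = 0.0374), was lost without replicate 1 of the parental line (adjusted p = 0.202), without either array of the brain line (0.12 and 0.169), and after quantile normalization (0.0548) or with unnamed clusters in the adjustment (0.102). TRIM21, an antibody receptor of the same family, was called in no comparison.

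PARP9 and DTX3L form a complex, and their divergent promoters share the core printed above. PARP9 measured 6.44 and 6.32 in MDA-MB-231, 6.60 and 6.95 in 231BoM-1833, and 7.70 and 7.58 in 231BrM-2a, and rose in 231BrM-2a by 1.26 (SE 0.13, limma adjusted p = 0.000334). DTX3L measured 8.16 and 8.20, 8.22 and 8.12, and 8.79 and 8.36. Its 231BrM-2a arrays were also the highest, but the difference of 0.39 was not called (SE 0.14, limma adjusted p = 0.0901). Whether the 2 genes differed in their change was not tested. PARP14, another ADP-ribosyl transferase, rose by 0.57 and 0.56 in the bone and brain lines (limma adjusted p = 0.0157 and 0.012). Its calls were lost without either MDA-MB-231 array or 231BoM-1833 replicate 1 in the bone line (adjusted p 0.0514 to 0.116), and without MDA-MB-231 replicate 2 or 231BrM-2a replicate 1 in the brain line (0.0986 and 0.0993).

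**Figure D2:**
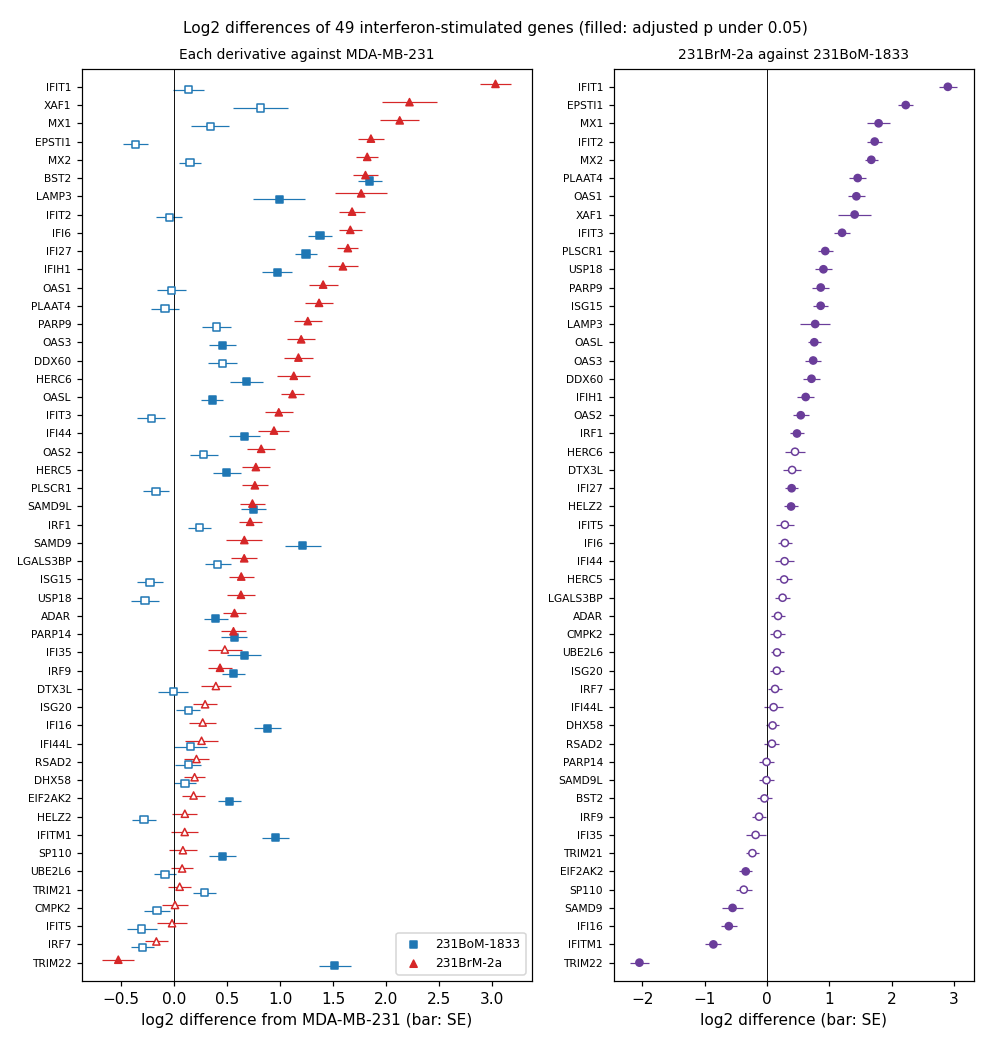
Log2 differences of the 49 members with their standard errors, against MDA-MB-231 on the left (squares 231BoM-1833, triangles 231BrM-2a, 2 arrays per line) and between the derivatives on the right, with filled symbols for adjusted p under 0.05. IFIT1 lies at 3.03 in the brain line and 0.13 in the bone line, and TRIM22 at -0.53 and 1.52.

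Among the 9 remaining members, 4 rose in 231BoM-1833 (44.4%) and 7 rose in 231BrM-2a (77.8%), against 8.43% and 10.5% among all clusters. Between the derivatives 5 were higher in 231BrM-2a (55.6%), against 12.5% among all clusters. IFI27, a small mitochondrial and nuclear envelope protein, measured 7.07 and 7.07 in MDA-MB-231, 8.34 and 8.29 in 231BoM-1833, and 8.72 and 8.70 in 231BrM-2a. It stood in 3 separate steps and rose by 1.24 (SE 0.099, limma adjusted p = 0.000135) and 1.64 (SE 0.099, limma adjusted p = 1.89e-05). The step between the derivatives, 0.40 (limma adjusted p = 0.0192), was lost without replicate 2 of the bone line (adjusted p = 0.0631) or either array of the brain line (0.104 and 0.0878).

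EPSTI1, first described as a stromal-interaction gene of breast tumours, measured 5.32 and 5.26 in MDA-MB-231, 4.79 and 5.05 in 231BoM-1833, and 7.20 and 7.09 in 231BrM-2a. The 231BrM-2a pair was high, by 1.86 over MDA-MB-231 (SE 0.12, limma adjusted p = 2.62e-05) and 2.22 over 231BoM-1833 (SE 0.12, limma adjusted p = 3.63e-06). XAF1, a pro-apoptotic partner of XIAP, measured 6.84 and 6.95, then 7.43 and 7.99, then 9.55 and 8.68. Its 231BrM-2a arrays were the highest but differed widely from each other, and the rise of 2.22 over MDA-MB-231 had the largest standard error of the members, 0.26 (limma adjusted p = 0.000633). PLAAT4, a phospholipase known as RARRES3, rose in 231BrM-2a by 1.37 (limma adjusted p = 0.000188).

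LAMP3, a lysosomal membrane protein, measured 8.32 and 8.31 in MDA-MB-231, 8.90 and 9.71 in 231BoM-1833, and 10.33 and 9.82 in 231BrM-2a. It rose by 0.99 (SE 0.24, limma adjusted p = 0.0266) and 1.76 (SE 0.24, limma adjusted p = 0.00146). The rise in 231BoM-1833 was lost without either MDA-MB-231 array or 231BoM-1833 replicate 2 (adjusted p 0.0871 to 0.137). The difference of 0.77 between the derivatives (limma adjusted p = 0.0494) was lost without any array other than the second of either derivative (adjusted p 0.0814 to 0.287). IFI44 rose in both derivatives, by 0.66 and 0.94 (limma adjusted p = 0.0182 and 0.00248), while its paralogue IFI44L was called in neither (0.15 and 0.26, limma adjusted p = 0.551 and 0.296). The rise of IFI44 in 231BoM-1833 was lost without either MDA-MB-231 array or 231BoM-1833 replicate 1 (adjusted p 0.0539 to 0.118).

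**Figure D3:**
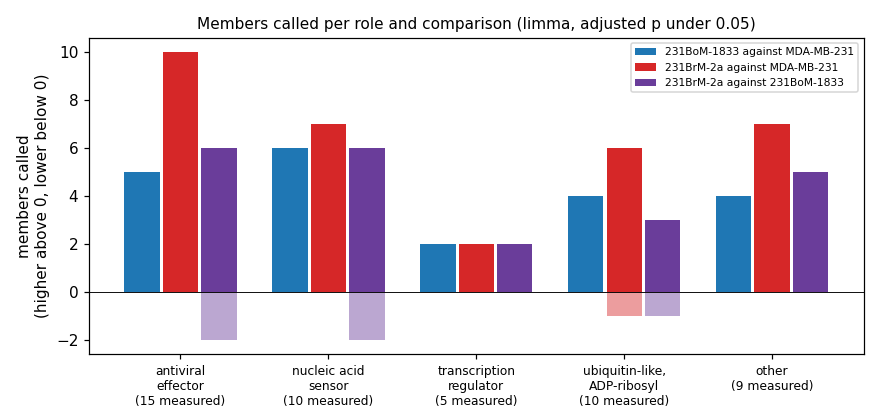
Number of members called higher (above 0) and lower (below 0, paler) in each role, with 1 bar per comparison and the number measured under each role. The antiviral effectors show 5 higher in the bone line (33.3%) and 10 in the brain line (66.7%), and the transcription regulators 2 in every comparison (40.0%). Of all clusters, 8.43% were higher in the bone line, 10.5% in the brain line and 12.5% in the brain line against the bone line.

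Sorted by their calls against MDA-MB-231, 15 members rose in both derivatives, 17 in 231BrM-2a alone, 5 in 231BoM-1833 alone, 1 was called in opposite directions and 11 were called in neither. Several members lay near the threshold in the line where they were not called. In 231BoM-1833, LGALS3BP, DDX60, XAF1 and PARP9 differed by 0.41, 0.46, 0.81 and 0.40 (limma adjusted p = 0.0526, 0.0531, 0.0658 and 0.0747). EPSTI1 differed there by -0.37 (limma adjusted p = 0.0665). Median centring called DDX60 and LGALS3BP higher in that line. IFI35 rose by 0.66 in 231BoM-1833 (limma adjusted p = 0.0252) and differed by 0.48 in 231BrM-2a (limma adjusted p = 0.0699). Of the 17 called in the brain line alone, 16 were also higher in 231BrM-2a when it was set against 231BoM-1833. The exception was LGALS3BP, a secreted galectin ligand, which differed by 0.25 (limma adjusted p = 0.188). Members called in 1 derivative alone, against shared parental arrays, are already likelier to differ between the derivatives. How often all clusters show these patterns was not computed, so the pattern counts are descriptive only. Of the 5 called in the bone line alone, IFITM1, EIF2AK2 and IFI16 were also lower in 231BrM-2a than in 231BoM-1833, while SP110 and IFI35 were not called (-0.37 and -0.18, limma adjusted p = 0.069 and 0.481). Of the 15 raised in both, IFIH1, OAS3, OASL, IFI27 and LAMP3 were higher in the brain line, SAMD9 was higher in the bone line and 9 were not called between the derivatives.

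The promoter core was set beside these calls as a description. It lay in 12 of 14 effectors with a window, 4 of 7 sensors, 0 of 5 regulators, 6 of 8 ubiquitin-like and ADP-ribosyl genes and 5 of 7 others. Among 26 measured members with the core, 11 rose in 231BoM-1833 and 18 in 231BrM-2a, with median log2 differences of 0.40 and 0.76. Among 13 measured members with a window and no core, 7 rose in each derivative, with medians of 0.45 and 0.48. Of all clusters, 8.43% were called higher in 231BoM-1833 and 10.5% in 231BrM-2a. IFIT5, RSAD2, ISG20, TRIM21, DTX3L and IFI44L held the core and were called in no comparison. OAS1 and XAF1 rose in 231BrM-2a without a core in their windows.

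Genes upstream of the members were read on the same arrays. Of 21 interferon ligand genes, 16 had their own cluster and 0 were called by limma in any comparison (adjusted p 0.134 to 0.986 in the bone line, 0.286 to 0.899 in the brain line and 0.303 to 0.986 between them). The 12 type I ligands measured 2.82 to 5.36 over all arrays, and IFNG 3.79 to 4.11. The lower quartile of all represented genes was 5.69 to 5.79 per array. The 3 type III ligands measured 6.07 to 8.54. As no background level came with the values, these levels do not show whether a ligand was expressed.

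Of 10 measured receptor and kinase genes, 0 were called in 231BoM-1833 (limma adjusted p 0.0928 to 0.912), and 2 rose in 231BrM-2a. IL10RB, a chain of the type III interferon and interleukin-10 receptors, measured 9.72 and 9.72 in MDA-MB-231, 9.57 and 9.64 in 231BoM-1833, and 10.49 and 10.46 in 231BrM-2a. It stood apart in 231BrM-2a, by 0.76 over MDA-MB-231 (SE 0.10, limma adjusted p = 0.00111). IFNAR2, a chain of the type I receptor, rose there by 0.48 (limma adjusted p = 0.0263), a call lost without any array of MDA-MB-231 or 231BrM-2a (adjusted p 0.0883 to 0.149). JAK1, TYK2 and IFNAR1 were not called in any comparison.

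Of 11 sensing and adaptor genes outside the member list, TLR3, the endosomal RNA receptor, rose by 0.58 in 231BoM-1833 and 0.47 in 231BrM-2a (limma adjusted p = 0.0104 and 0.0183). IRF3, the factor that first switches on interferon beta, fell by 0.50 on the log2 scale in 231BoM-1833 (limma adjusted p = 0.0124). STING1, the adaptor of cytoplasmic DNA sensing, rose by 0.61 in 231BrM-2a (limma adjusted p = 0.0118), as did IKBKE, a kinase that activates IRF3 (0.37, limma adjusted p = 0.0486). RIGI and MAVS, the receptor and adaptor of RNA sensing, were not called. The 5 calls above were each lost without at least 1 array. They were lost without MDA-MB-231 replicate 2 in every case (adjusted p = 0.0867 and 0.124 for TLR3, 0.08 for IRF3, 0.106 for STING1 and 0.136 for IKBKE). Without MDA-MB-231 replicate 1 the calls of IRF3 (0.0686) and IKBKE (0.19) and the brain line's call of TLR3 (0.0612) were lost. Without 231BrM-2a replicate 1 the brain line's calls of TLR3 (0.09), STING1 (0.0952) and IKBKE (0.255) were lost, and without 231BrM-2a replicate 2 those of TLR3 (0.0992) and IKBKE (0.0868). The call of IKBKE was also lost after quantile normalization (0.0728), after median centring (0.0609) and with unnamed clusters in the adjustment (0.105). In 231BrM-2a against 231BoM-1833, 3 of the 11 genes were higher (27.3%), against 12.5% among all clusters. STING1, CGAS and IRF3 differed by 0.78, 0.62 and 0.52 (limma adjusted p = 0.00271, 0.028 and 0.00575). The calls of STING1 and IRF3 held when any array was left out. That of CGAS was lost without 231BoM-1833 replicate 2 or either 231BrM-2a array, and with unnamed clusters in the adjustment (limma adjusted p = 0.0826).

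Among 8 brakes on interferon signalling, PTPN11, a phosphatase acting on this pathway, fell by 0.68 on the log2 scale in 231BrM-2a (limma adjusted p = 0.0037). PIAS3 fell by 0.57 in 231BoM-1833 and by 0.48 in 231BrM-2a (limma adjusted p = 0.0228 and 0.0368), and PIAS1 rose by 0.71 in 231BrM-2a (limma adjusted p = 0.00756); both encode inhibitors of activated STAT proteins. The calls of PIAS3 were lost without either MDA-MB-231 array in both lines, without 231BoM-1833 replicate 1 in the bone line (adjusted p 0.0752 to 0.114) and without either 231BrM-2a array in the brain line (0.116 to 0.161). That of PIAS1 was lost without MDA-MB-231 replicate 2 (0.0744) or 231BrM-2a replicate 2 (0.0555). SOCS1, the feedback inhibitor of JAK kinases, was not called (0.02 and -0.05, limma adjusted p = 0.914 and 0.773).

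**Figure D4:**
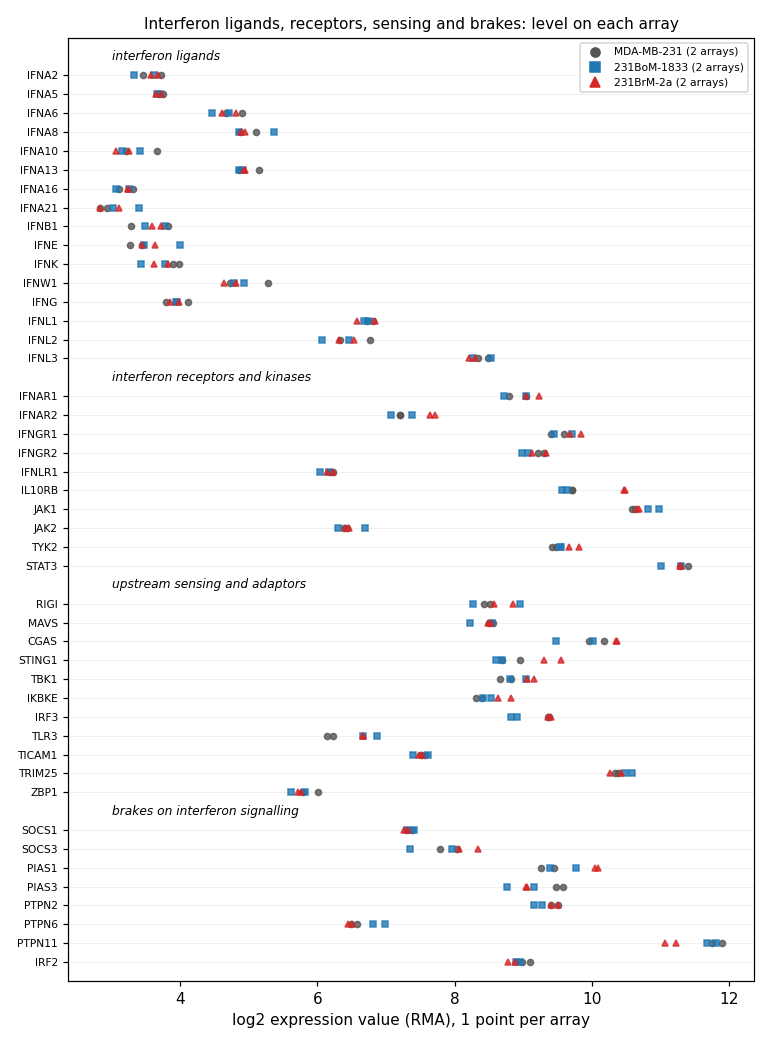
Log2 expression value (horizontal axis) of interferon ligands, receptors and kinases with STAT3, sensing genes and brakes (rows) on every array. Each point is 1 array, with 2 arrays per line. The 231BrM-2a points of IL10RB, at 10.49 and 10.46, and of PTPN11, at 11.23 and 11.07, stand apart from those of the other lines.

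Of 13 genes known mainly for interferon gamma, 2 rose in 231BoM-1833 (15.4%), against 8.43% among all clusters. In 231BrM-2a 2 rose (15.4%) and 1 fell (7.69%), against 10.5% higher and 8.59% lower among all clusters. GBP2, a guanylate-binding GTPase, measured 5.52 and 5.72 in MDA-MB-231, 7.17 and 6.99 in 231BoM-1833, and 7.42 and 7.82 in 231BrM-2a. Both derivative pairs lay above the parental pair, by 1.46 (SE 0.15, limma adjusted p = 0.000505) and 2.0 (SE 0.15, limma adjusted p = 5.46e-05). ICAM1, an adhesion molecule, rose by 1.12 in 231BrM-2a (limma adjusted p = 0.0011), and GBP4 by 0.63 in 231BoM-1833 (limma adjusted p = 0.0289), the latter lost without either MDA-MB-231 array or 231BoM-1833 replicate 1 (adjusted p 0.0867 to 0.169). CIITA, the class II transactivator, fell by 0.45 on the log2 scale in 231BrM-2a (limma adjusted p = 0.0369), a call lost without MDA-MB-231 replicate 2 or either 231BrM-2a array (adjusted p 0.142 to 0.239). The chemokines CXCL9, CXCL10 and CXCL11 and the enzyme IDO1 were not called in any comparison.

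Other features of the arrays were read beside the member counts. Array medians lay between 6.58 and 6.64, and replicates correlated at r = 0.9935 to 0.9959 across clusters, which are not independent replicates. Among all clusters 8.43% rose and 7.38% fell in 231BoM-1833, and 10.5% rose and 8.59% fell in 231BrM-2a. Of 16 measured leukocyte markers, 1 rose (CD14, by 0.88) and 1 fell (NKG7) in 231BoM-1833 (6.25% each). In 231BrM-2a CD14 and NKG7 fell (12.5%). Between the derivatives CD14 and CD68 were lower in 231BrM-2a (12.5%), against 11.0% among all clusters. These 2 differences, and the rise of CD14 in the bone line, held when any array was left out. The mean log2 value over the 16 markers was 6.25 and 6.33 in MDA-MB-231, 6.23 and 6.32 in 231BoM-1833, and 6.14 and 6.15 in 231BrM-2a. PTPRC, which marks leukocytes, lay at 3.60 to 3.86 throughout. Of 9 red cell, platelet and endothelial markers, 1 fell in 231BoM-1833 (11.1%) and 3 fell in 231BrM-2a (33.3%). TIE1 fell in both lines, and its calls held when any array was left out. The falls of PPBP and PECAM1 in the brain line were each lost without any array of the lines compared. With the mean of its clusters PECAM1 was not called (limma adjusted p = 0.258). The means over the 9 markers were 6.05 and 6.04, 5.88 and 5.81, and 5.70 and 5.65 in the same order of lines. The mean over 13 handling and immediate early genes was 9.54 and 9.71 in MDA-MB-231, 10.29 and 10.24 in 231BoM-1833, and 9.68 and 9.82 in 231BrM-2a. It was highest in the bone line, where 5 of the 13 rose (38.5%). In the brain line 3 rose (23.1%) and 2 fell (15.4%). Between the derivatives 6 of the 13 were lower in 231BrM-2a (46.2%), against 11.0% among all clusters. These were DNAJB1, EGR1, IER2, IER3, JUN and JUNB, with the largest difference, -2.02, in IER3. Leaving out single arrays ended the calls of EGR1 and JUNB between the derivatives, and of ATF3 and DNAJB1 in the bone line. In the brain line it ended those of ATF3, FOS, JUN and IER2. The part of these genes in the member differences was not tested. Of the sort markers, CD44 measured 11.45 to 12.17, CD24 5.76 to 6.49 and EPCAM 7.28 to 8.32. Both EPCAM extremes were in 231BoM-1833, 8.32 in replicate 1 and 7.28 in replicate 2, and the other arrays lay at 7.93 to 8.23. No sort marker was called against MDA-MB-231 (limma adjusted p 0.055 to 0.993), which for EPCAM does not show equal levels. CD44 was lower in 231BrM-2a than in 231BoM-1833 (-0.54, limma adjusted p = 0.014). That call was lost without replicate 1 of the bone line (adjusted p = 0.0565) or either array of the brain line (0.074 and 0.0704). VIM, KRT8 and KRT18 were high (11.42 to 12.92), and ESR1 and PGR lay at 4.48 to 5.24, low values in a line known as receptor-negative. Of these and ERBB2, 6 line identity genes in all, KRT18 fell in 231BoM-1833 (-0.48, limma adjusted p = 0.0197). In 231BrM-2a KRT8 and ERBB2 rose (0.75 and 0.45, limma adjusted p = 0.00246 and 0.0235) and VIM fell (-0.37, limma adjusted p = 0.0294). Between the derivatives KRT8, KRT18 and ERBB2 were higher and VIM lower in 231BrM-2a (limma adjusted p 0.00102 to 0.0047). Single arrays left out ended the calls against MDA-MB-231 of KRT18 (either parental array or replicate 1 of the bone line, adjusted p 0.0666 to 0.106), ERBB2 and VIM (any array of the lines compared, 0.064 to 0.159 and 0.104 to 0.145).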

How the data were processed

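The authors deposited RMA-normalised log2 values for every transcript cluster of the Affymetrix Human Gene 1.0 ST array. The submitters' processing notes name Affymetrix Expression Console. Its version and the genome build of the array design are not given in the sources used here. RMA puts the arrays on 1 scale, so differences in RNA content between cells are hidden, and folds of dim clusters may be understated. Scanner files, detection calls and scan batches were not used here. The precision is limited by the number of arrays, 2 per line.

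A platform annotation named 21214 of 33297 clusters, 19460 with 1 symbol and 1754 with several entries; only the former name genes, and a symbol on several clusters is read from the one with the highest mean. Each line's mean was fitted over the 6 arrays by lmFit and eBayes of limma 3.58.1, run under R 4.3.3 (two-sided, 3 residual and 6.06 prior degrees of freedom), with Benjamini-Hochberg adjustment over the 21214 clusters and a threshold of 0.05. The fit was tested on simulated data.

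The members, the other gene lists and the roles were chosen with earlier results of these data known, so the lists received no test of their own. All members are counted. The text names, per role and comparison, up to 3 called members with the largest difference and every member called lower. It also names IRF1, IRF7, IRF9 and STAT2, the sort markers, the member called in opposite directions and up to 5 called in 1 derivative alone. Of each other list up to 3 called genes were eligible, and not all of these are named. Other members, and some genes of the other lists outside this rule, were named after their values were seen, to complete a family or a pattern. Alternatives were other cluster sets, quantile normalization, median centring, limma's trend and robust options, only the lines compared, replicate blocks, the mean of a symbol's clusters and leaving out each array. Promoter windows came from a RefSeq table of assembly GRCh38.p14.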

Additional observations from a re-analysis of the deposited data

Results flagged for a closer look

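The member TRIM22 was called in opposite directions in the derivatives, with a difference between them that was itself called by limma. Its log2 differences were 1.52 for bone against parental, -0.53 for brain against parental and -2.04 for brain against bone. Among the genes read beside the members, 3 more did so. CD14, a leukocyte marker, had 0.88, -0.50 and -1.39 in that order, IER2 had 0.87, -0.41 and -1.28, and IER3 had 1.12, -0.90 and -2.02, the last pair being immediate early genes. The fall of CD14 in the brain line lost its call without either MDA-MB-231 array or 231BrM-2a replicate 1 (adjusted p 0.0711 to 0.133), and that of IER2 without any array of these lines (adjusted p 0.0592 to 0.253). With 2 arrays per line, no array could be tested as an outlier.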

How the results depend on the processing

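With unnamed clusters added to the adjustment, 12 members were higher in 231BoM-1833 in place of 21, 0 in place of 1 were lower in 231BrM-2a, and 3 in place of 5 were lower in 231BrM-2a against 231BoM-1833. Quantile normalization left 0 lower in 231BrM-2a, and fitting only the 2 lines compared left 3 lower between the derivatives. Without the dimmest clusters, the median between the derivatives was 0.39 over 45 members. Leaving out 1 array at a time gave 9 to 18 members higher and 0 to 1 lower in 231BoM-1833 (EPSTI1, without 231BoM-1833 replicate 2), 0 to 1 lower in 231BrM-2a with a median of 0.68 to 0.80, and 2 to 5 lower between the derivatives with a median of 0.24 to 0.42. Uncalled values that changed sign this way were, in 231BoM-1833, IFIT1 (-0.0602 to 0.32), CD24 (-0.36 to 0.37), CD44 (-0.0366 to 0.31) and EPCAM (-0.75 to 0.29), and between the derivatives CD24 (-0.58 to 0.15) and EPCAM (-0.13 to 0.91). The causes were not tested.

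Deviations of same-numbered arrays correlated at 0.0362, -0.162 and -0.165, so the replicate numbers do not pair the samples. With the replicate number as a block, 19 members were higher in 231BoM-1833, 32 higher and 1 lower in 231BrM-2a, and 21 higher and 3 lower between the derivatives, and the call of IKBKE in 231BrM-2a was lost (adjusted p = 0.0786). A block with the numbers of 231BrM-2a crossed, chosen after seeing the data, gave 21 higher and 0 lower, 33 higher and 1 lower, and 22 higher and 5 lower. Over all clusters the crossed block gave 3821, 4468 and 5387 calls, against 3354, 4040 and 4976 without a block. The replicate number as a block gave 2724, 3535 and 4564. What lies behind these differences was not tested. Of the named genes' values under all alternatives, 1616 kept direction and call, 200 lost the call, 12 gained it and 7 changed sign.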
